A study of Mus musculus with 2 samples.

Results

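The genes described here are 87 splicing factor and RNA-binding protein genes of the mouse, chosen by symbol: the Srsf, Hnrnp, Snrp, Sf3a, Sf3b, numbered Rbm, Mbnl, Celf and Rbfox families. They are 87 of 16593 genes named on the array and were measured by 160 probes. The mice were of the C57/BL6 strain and 10 days old, and received a subcutaneous dose of DHT (taken to be the androgen dihydrotestosterone) or of vehicle, and their tibialis anterior, a muscle of the lower leg, was collected after 24 h. Each condition had 1 Illumina bead array and no replicates. Neither the sex of the mice nor the number that went into an array is stated, so every difference describes these 2 arrays and has no error between animals.

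Splicing removes introns from pre-mRNA and joins exons. The spliceosome that does this is built from small nuclear ribonucleoproteins (snRNPs), whose protein shell includes the Sm proteins encoded by Snrp genes, and from the SF3A and SF3B complexes, which help the U2 snRNP hold the branch point. SR proteins (Srsf genes) mostly promote the use of exons they bind, while many hnRNPs mask or silence them. In muscle, the MBNL, CELF and RBFOX families and RBM20 and RBM24 act on top of this machinery and switch exons of contractile, calcium handling and membrane genes between fetal and adult forms. An expression array reads the amount of each factor's mRNA and not the exons it controls.

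The splicing factor genes mostly showed small differences between the arrays. Of those detected, 19.7% were past 1.5-fold, against 29.2% of all detected genes, or 15.2% of both without background correction. Those past it lay in both directions. Rbfox1 and Mbnl1 were higher on the DHT array and Rbfox2 lower, Hnrnpa2b1 was higher and its relative Hnrnpa1 lower, the imprinted Snrpn was higher, and the SR protein genes Srsf2 and Srsf6 and the cold-inducible Rbm3 were lower. Of the 87 genes, 66 had a probe detected above background (detection p under 0.01) on at least 1 array, 63 on both and 3 on the vehicle array alone, and 21 were detected on neither. Those seen on the vehicle array alone were Hnrnph3, at least 1.04-fold lower with DHT, Rbm10, at least 1.06-fold lower, and Hnrnph2, for which no fold can be given. A further 16 protein-coding genes of these families in the mouse gene table had no named probe. Differences are DHT minus vehicle on a log2 scale after background correction and quantile normalization. A fold is the brighter over the dimmer array on that scale.

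At 1.5-fold, 6 of the 66 genes were higher and 7 lower, together 19.7%, where 29.2% of all 8815 detected named genes were past the same fold (13.4% higher, 15.8% lower). At 2-fold, 1 was higher and 2 were lower, which is 4.55% of the members, against 10.9% of all genes (4.61% higher, 6.28% lower). Without background correction 4 members were higher and 6 lower at 1.5-fold, where 6.74% of all genes were higher and 8.43% lower, and the share past the fold was 15.2% for both. Among genes detected on both arrays the share was 20.6% of 63 members and 25.4% of all genes. The lower share of members thus depended on the background correction. The median difference was -0.03 over the members and -0.01 over all genes. The quartiles of the members lay at -0.23 and 0.15, and those of all genes at -0.37 and 0.33. Probes of 1 gene that were detected on both arrays differed among themselves with an SD of 0.26 over 1967 genes and 0.29 over 30 members.

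**Figure D1:**
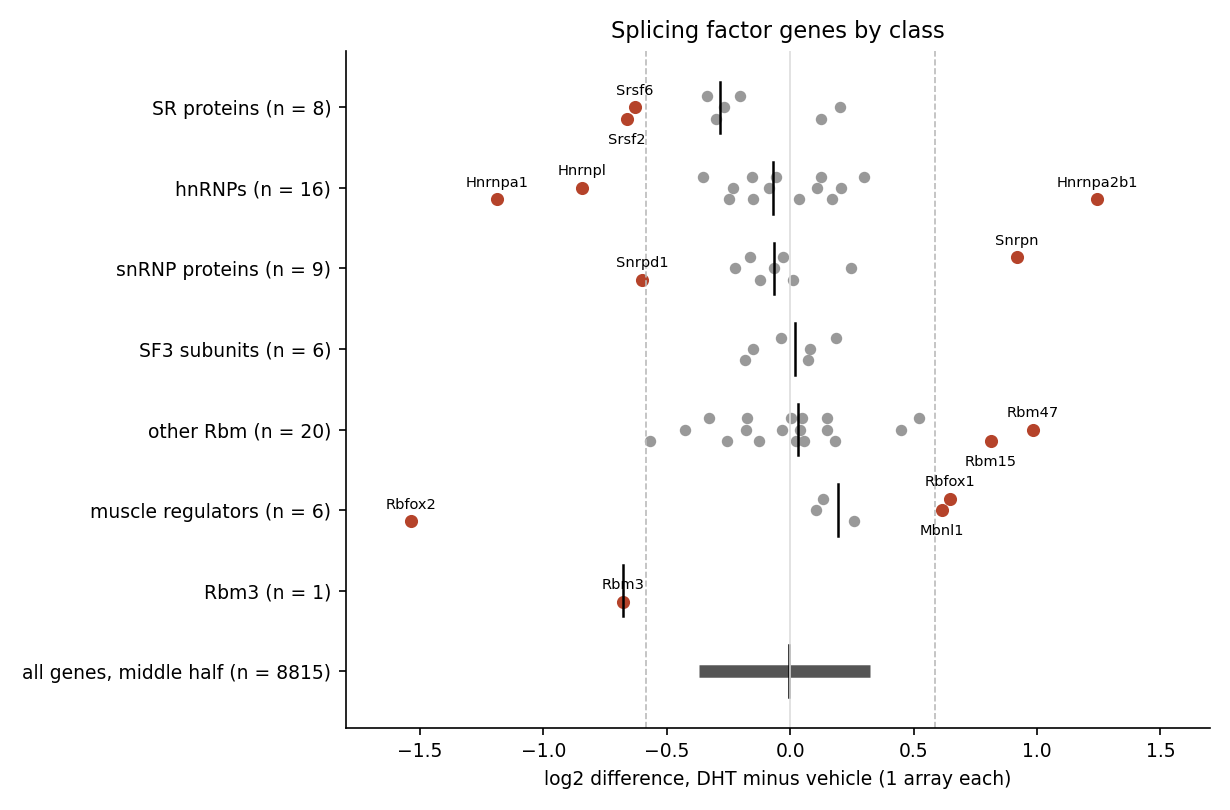
Log2 difference of each detected splicing factor gene, DHT minus vehicle, by class, with 1 array per condition. Each point is a gene, red and named where past 1.5-fold (dashed lines), vertical black lines are class medians, and the bar at the bottom spans the quartiles of all 8815 genes, from -0.37 to 0.33. The 6 SF3 subunits lie closest to 0, and Rbfox2 at -1.54 and Hnrnpa2b1 at 1.24 lie farthest out.

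The whole arrays differed in brightness and in markers of several cell types. The total signal was 2.65e+07 on the DHT array and 2.99e+07 on the vehicle array. Before normalization, 58 of the 66 members had the lower signal on the DHT array. This count was not made over all genes, so it is not read as a trait of the members. The muscle markers Acta1, Ckm, Myh4, Tnnt3, Mb and Des were all detected on both arrays, with a summed level of 294450 on the DHT array and 265283 on the vehicle array and 1 of 6, Mb, past 1.5-fold. Acta1, Ckm and Tnnt3 had signals above 40000 on both arrays, near the top of the scale, where differences are compressed, as did the fibroblast marker Dcn, so these sums say little about a change. The members had 0 probes above 40000. Past 1.5-fold on the DHT array, 5 of 5 detected endothelial, 4 of 6 fibroblast, 6 of 6 neutrophil, 4 of 4 cell cycle, 3 of 3 satellite cell and 1 of 3 macrophage markers were lower, and 5 of 5 adipocyte markers were higher. Of the lymphocyte markers 3 of 6 were higher and 2 lower, of the erythroid markers 3 of 5 were higher and 1 lower, and of the 2 Schwann cell markers 0 were past the fold. Neither array had a detected probe for the defining markers Kdr, Fabp4, Myf5 or Pax7. Summed over their lists, the endothelial level was 4247 on the DHT array and 10066 on the vehicle array, and the fibroblast level 66428 with DHT and 94666 with vehicle. The neutrophil level was 2650 with DHT and 8819 with vehicle, and the adipocyte level 20066 with DHT and 8731 with vehicle. The cell cycle level was 184 with DHT and 2113 with vehicle. All detected cell cycle markers were detected on the vehicle array alone, so 184 is a sum of undetected values. Ngp, Mpo, Calcr and Cd79a were also detected on the vehicle array alone, and Plin1, Cd3d, Cd3g and Cd8b1 on the DHT array alone. Such markers passed the filter through the array where they were high, and their folds are lower bounds. In whole muscle, fewer cells of a type and less RNA per cell cannot be told apart, and the part of these shifts in the differences below was not tested.

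Promoter sequences of 4 members past 1.5-fold are shown, each from 250 bases before to 50 after an annotated transcription start (RefSeq, GRCm38.p6). Which start is used in this muscle was not measured. The table held 85 such promoters for 59 of the 66 detected members. The androgen receptor, to which DHT binds, binds DNA as a pair, each partner preferring AGAACA, or TGTTCT on the other strand. This 6-base element and the full site, AGAACA followed after 3 bases by TGTTCT, were searched on both strands. The full site was found in 0 of the 85 promoters and in 3 of all 32851. The 6-base element, which every full site also holds, was found in 6 of the 85, or 7.06%, against 12.7% of the promoters of all detected genes and 19.0% of all promoters. Of the 13 members past 1.5-fold, 10 were among those searched, and Rbfox2, Rbm3 and Snrpd1 were not. Of these 10, Rbfox1 and Srsf6 held the 6-base element, shown in capitals:
Rbfox1, chr16:5884543-5884842, plus strand: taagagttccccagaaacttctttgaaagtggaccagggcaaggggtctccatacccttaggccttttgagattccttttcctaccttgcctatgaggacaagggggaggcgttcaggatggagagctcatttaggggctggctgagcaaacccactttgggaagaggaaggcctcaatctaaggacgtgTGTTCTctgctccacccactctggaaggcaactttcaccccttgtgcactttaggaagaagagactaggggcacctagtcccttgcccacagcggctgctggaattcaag
Srsf6, chr2:162931258-162931557, plus strand: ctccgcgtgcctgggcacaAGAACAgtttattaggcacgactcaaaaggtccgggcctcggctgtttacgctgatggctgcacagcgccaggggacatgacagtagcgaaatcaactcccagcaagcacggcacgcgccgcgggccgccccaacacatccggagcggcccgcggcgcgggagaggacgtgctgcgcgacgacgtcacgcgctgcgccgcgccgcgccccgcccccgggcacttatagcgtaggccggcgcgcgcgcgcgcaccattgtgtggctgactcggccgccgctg

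In Rbfox1 the match began 60 bases before this start and in Srsf6 231 bases before it, and the other listed Rbfox1 promoter held none. These promoters also differ in CpG content, with 3 CpG dinucleotides in that of Rbfox1 and 45 in that of Srsf6. The median was 24 over 50 promoters of the core factors (the Srsf, Hnrnp, Snrp and Sf3 genes), 7 over 11 promoters of 5 muscle regulators and 20 over those of all detected genes. The related genes Hnrnpa1 and Hnrnpa2b1, which differed in opposite directions, were compared for the CCAAT box, which the factor NF-Y binds, again on both strands, with matches in capitals:
Hnrnpa1, chr15:103240147-103240446, plus strand: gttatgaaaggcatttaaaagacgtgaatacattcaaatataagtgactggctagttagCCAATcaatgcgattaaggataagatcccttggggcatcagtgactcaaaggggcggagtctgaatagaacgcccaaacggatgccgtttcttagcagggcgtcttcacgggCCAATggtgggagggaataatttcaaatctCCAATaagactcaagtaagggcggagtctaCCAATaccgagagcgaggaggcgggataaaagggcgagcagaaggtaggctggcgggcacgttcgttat
Hnrnpa2b1, chr6:51469845-51470144, minus strand: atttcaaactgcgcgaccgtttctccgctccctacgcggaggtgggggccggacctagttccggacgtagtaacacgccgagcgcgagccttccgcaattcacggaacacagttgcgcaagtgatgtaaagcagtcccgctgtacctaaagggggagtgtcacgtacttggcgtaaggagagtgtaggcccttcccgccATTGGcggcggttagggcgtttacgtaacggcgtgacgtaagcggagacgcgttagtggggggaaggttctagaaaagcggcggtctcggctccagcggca

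The Hnrnpa1 promoter held 4 matches and that of Hnrnpa2b1 held 1, on the opposite strand. A CCAAT box, searched as CCAAT or ATTGG, was found in 45.9% of the members' promoters and in 37.7% of those of all detected genes. These matches describe the letters in the window and do not show binding.

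The muscle regulators had a probe for 11 genes, of which 6 were detected. At 1.5-fold 2 of these were higher and 1 was lower, beside 13.4% and 15.8% of all genes, and their median difference was 0.20. Rbfox1 encodes a muscle, heart and brain splicing factor that binds GCAUG elements and favours exons of differentiated fibres. Its brighter probe had a signal of 13429 on the DHT array and 9744 on the vehicle array, 1.57-fold higher (0.65). A dimmer Rbfox1 probe had 686 on the DHT array and 321 on the vehicle array, 3.64-fold higher (1.86), or 2.50-fold without background correction. Both detected probes were thus higher on the DHT array, by different amounts, while the remaining one was at background.

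Rbfox2, the paralog that binds the same element and is made in many cell types, went the other way on both of its probes. Their signals were 258 and 256 on the DHT array, against 606 and 483 on the vehicle array. The folds were 2.90 and 2.18 lower (-1.54 and -1.12), or 2.01 and 1.62 without background correction. Of the detected muscle regulators, Rbfox2 alone was lower after normalization. Before normalization Celf1, Celf2 and Mbnl2 also had slightly lower signals on the DHT array. Beside Rbfox2, 5 of 5 detected endothelial markers and 4 of 6 fibroblast markers were lower past 1.5-fold, and their part in the Rbfox2 difference was not tested. Rbfox3, the neuronal member of the family, was detected on neither array.

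Mbnl1, which drives the adult splicing pattern of muscle and is sequestered by repeat RNA in myotonic dystrophy, had a signal of 18855 on the DHT array and 14188 on the vehicle array, 1.53-fold higher (0.62). Under scaling to a common median its difference was 0.56, below 1.5-fold. Its paralog Mbnl2 had signals of 13491 and 5578 on the DHT array and 14086 and 5849 on the vehicle array for 2 probes, with normalized differences of 0.13 and 0.15. Before normalization the Mbnl2 signals were thus slightly lower on the DHT array, and after it slightly higher. Mbnl3, most known from muscle precursors, was not detected.

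The CELF proteins oppose MBNL on many exons. Celf1 had a signal of 997 on the DHT array and 1022 on the vehicle array, and its 3 detected probes differed by between 0.02 and 0.29. Celf2 had signals of 4420 on the DHT array and 4734 on the vehicle array, with 2 probes at 0.10 and 0.19. These differences were about as large as the probe-to-probe SD or smaller. Celf3 and Celf4, neuronal members of the family, were not detected. Rbm24, a splicing factor of heart and skeletal muscle, had a signal of 144 on the DHT array and 170 on the vehicle array, neither well above background. Rbm20, which regulates titin splicing, had no probe and was not analysed here.

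**Figure D2:**
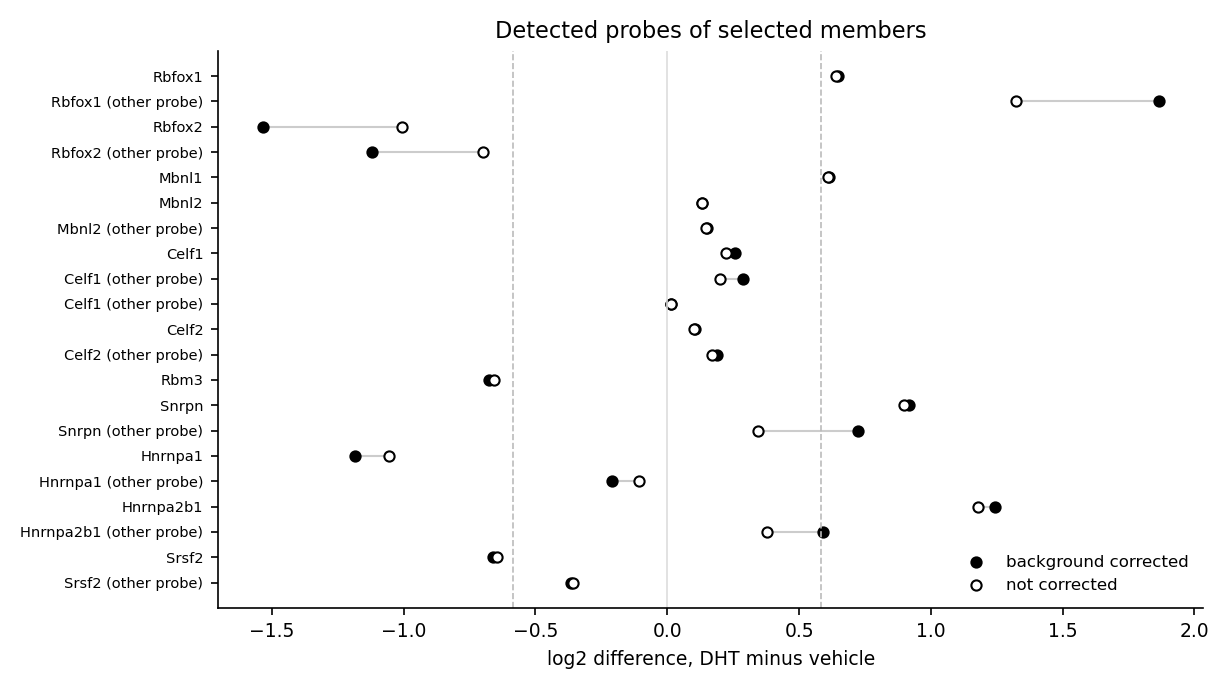
Log2 difference, DHT minus vehicle, of each detected probe of the muscle regulators, Rbm3, Snrpn, Hnrnpa1, Hnrnpa2b1 and Srsf2, after background correction (filled) and without it (open). The probe that stands for a gene comes first and dashed lines mark 1.5-fold. Both Rbfox1 probes lie right of the upper line and both Rbfox2 probes left of the lower line with either processing.

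The core factors, 47 genes with 39 detected, had a median of -0.09, with 2 higher (5.13%) and 5 lower (12.8%) at 1.5-fold, beside 13.4% and 15.8% of all genes. Among them 24 of 39 differences were below 0, against 50.5% of all genes. The SR protein genes were the lowest of the core classes, with a median of -0.29 over 8 detected genes, 6 of them below 0, 2 past 1.5-fold and 0 higher at that fold. For some the side of 0 depended on the probe. Among the 6, Srsf5 had probes at -0.34 and 0.15 and Srsf10 at -0.30 and 0.48. Srsf3, counted above 0, had probes at 0.12 and -0.10.

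Srsf2 encodes SC35, which binds exonic enhancers. Its signal was 3536 on the DHT array and 6488 on the vehicle array, 1.58-fold lower (-0.66), and its other detected probe, with 3757 on the DHT array and 5537 on the vehicle array, was 1.29-fold lower (-0.37). Srsf6, an SR protein of exon choice, had 1625 on the DHT array and 2922 on the vehicle array, 1.55-fold lower (-0.63). Srsf1, a founding member of the family, had 3668 on the DHT array and 5089 on the vehicle array, with 2 probes at -0.27 and -0.38. Both Srsf1 probes were therefore lower in the same direction without passing 1.5-fold. The members above 0 were Srsf4 (0.20) and Srsf3 (0.12), and Srsf12 was not detected.

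The hnRNP genes held the core factors that differed most, in opposite directions. Hnrnpa2b1, whose proteins package pre-mRNA and carry RNAs along the cytoskeleton, had a signal of 3440 on the DHT array and 1802 on the vehicle array, 2.37-fold higher (1.24). Its other detected probe had 383 on the DHT array and 341 on the vehicle array, 1.51-fold higher (0.59), or 1.30-fold uncorrected. Hnrnpa1, a closely related repressor of exon use, had 768 on the DHT array and 1908 on the vehicle array, 2.28-fold lower (-1.19). A dimmer Hnrnpa1 probe gave 242 on the DHT array and 296 on the vehicle array, a difference of -0.21 that is smaller than the SD between probes. The paralogs thus lay on opposite sides, and within each gene the size depended on the probe. The mouse gene table lists copies such as Hnrnpa1l2-ps and Rbm3-ps, whose transcripts the probes of Hnrnpa1 and Rbm3 may also bind.

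Hnrnpl, which binds CA-rich elements, had 1334 on the DHT array and 2741 on the vehicle array on its single probe, 1.79-fold lower (-0.84). The remaining 13 detected hnRNP genes lay within 1.5-fold. The probes with the highest mean in this class differed little. Hnrnpab had 13839 on the DHT array and 17320 on the vehicle array (-0.15). Hnrnpc, which binds uridine tracts, had 9277 with DHT and 13657 with vehicle (-0.35), and Hnrnpm 8049 with DHT and 10843 with vehicle (-0.23). Hnrnph1, a G-run binding factor, had 5 probes, all above 0 after normalization, from 0.17 to 0.80. Before it, the brighter ones were lower on the DHT array, at 2161, 1658 and 1167, against 2288, 1717 and 1211 on the vehicle array. The dimmer ones were higher, at 358 and 302 with DHT and 329 and 255 with vehicle. The value of 0.80 came from the dimmest probe and was 0.43 without background correction. Hnrnpd and Hnrnpr were not detected.

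Of the 9 detected Snrp genes, whose median was -0.06, Snrpn was the one past 1.5-fold upward. It encodes SmN, a tissue-restricted form of the Sm protein SmB, and is expressed from the paternal copy alone. Its signal was 8400 on the DHT array and 5152 on the vehicle array, 1.89-fold higher (0.92), and a dim second probe, with 263 on the DHT array and 233 on the vehicle array, was 1.65-fold higher (0.72) or 1.27-fold uncorrected. Snrpn shares its transcript with Snurf, and the values cannot be told apart by gene. Snrpb, which encodes SmB itself, had 6798 on the DHT array and 7621 on the vehicle array, with 2 probes at 0.01 each (the brighter at -0.02 under scaling to a common median).

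Snrpd1, which encodes a core Sm protein, had 668 on the DHT array and 1142 on the vehicle array, 1.52-fold lower (-0.60), with its other probe at -0.43. Without background correction it was 1.43-fold lower and no longer past 1.5-fold. Snrpd2, its partner in the Sm ring, differed by -0.03, and Snrpb2 and Snrpe were not detected. The SF3 subunits were the most even class. Their 6 detected genes, subunits of the complexes at the branch point, lay between -0.18 and 0.19, with 0 past 1.5-fold, among them Sf3b2 (-0.18), Sf3a3 (-0.04) and Sf3b5 (0.19). The subunit genes Sf3a2, Sf3b1 and Sf3b4 were not detected by their probes.

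**Figure D3:**
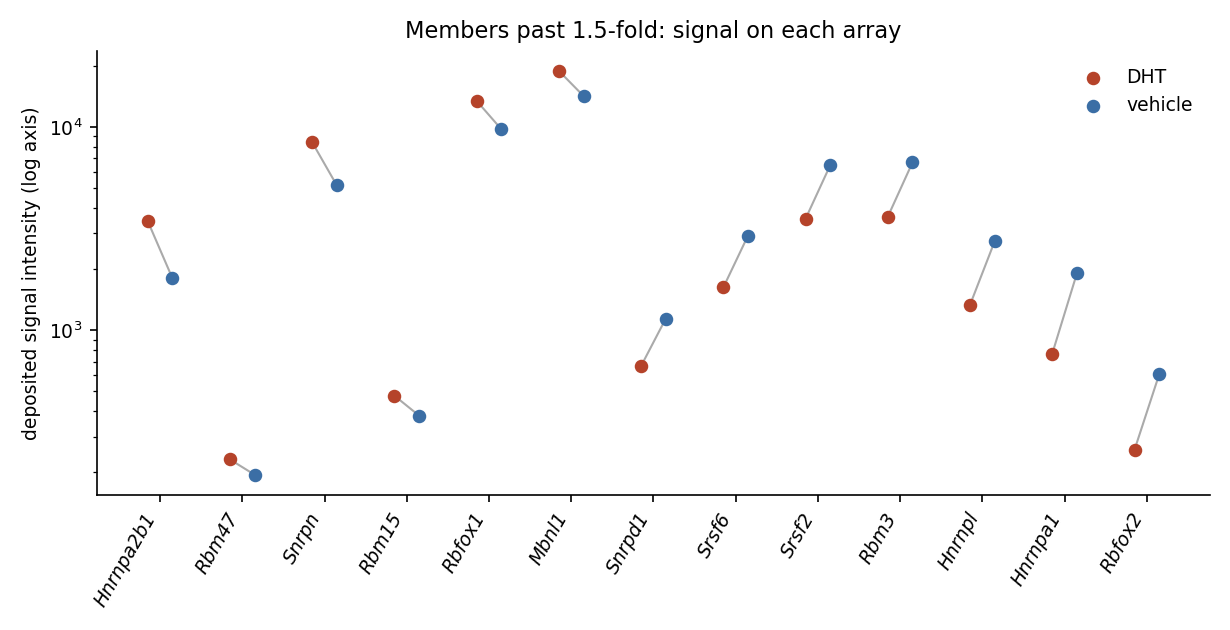
Deposited signal intensity, on a log axis and before normalization, of the 13 members past 1.5-fold on the DHT array (red) and the vehicle array (blue), ordered by their log2 difference. The 6 higher members run from Hnrnpa2b1 to Mbnl1 and the 7 lower ones from Snrpd1 to Rbfox2, and Rbm47 and Rbfox2 had among the lowest signals.

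The other numbered Rbm genes are a mixed group that share an RNA-binding domain and take part in splicing, RNA methylation, editing and mRNA decay. Of 28 with a probe, 20 were detected, with 2 higher and 0 lower at 1.5-fold. Their median difference was 0.03, or -0.12 under scaling to a common median, where the median of all genes was -0.13. At 1.5-fold, 13.4% of all genes were higher and 15.8% lower. Rbm15, an adaptor of the complex that methylates adenosines in RNA, had 476 on the DHT array and 380 on the vehicle array, 1.76-fold higher (0.81), or 1.48-fold without background correction. Rbm47, a cofactor of cytidine deamination in RNA, had 231 on the DHT array and 195 on the vehicle array, 1.98-fold higher (0.98), or 1.31-fold uncorrected, near the lowest detected signals of 180 with DHT and 190 with vehicle. Its 4 other probes were at background. Both genes thus lay below 1.5-fold without background correction.

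Rbm38, which binds AU-rich elements and stabilises the mRNA of the cell cycle inhibitor p21, did not pass 1.5-fold on the probe that stands for it, at 2683 on the DHT array and 2247 on the vehicle array (0.52). Its 2 other detected probes stood at 0.84 and 0.89, so all 3 were above 0. Rbm5, a regulator of splicing in apoptosis genes, had 5060 on the DHT array and 6583 on the vehicle array (-0.17), and Rbm42 had 2366 on the DHT array and 2529 on the vehicle array (0.15). The others of the 20 lay between -0.57 (Rbm39, a coactivator and splicing factor) and 0.45 (Rbm6). Rbm7, Rbm11, Rbm12b1, Rbm12b2, Rbm25, Rbm34, Rbm44 and Rbm45 were not detected.

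Rbm3 encodes a small glycine-rich protein whose mRNA is induced by mild cold and that binds RNA and aids translation. It had a signal of 3618 on the DHT array and 6687 on the vehicle array, 1.60-fold lower (-0.68) and 1.58-fold lower without background correction. Its 2 other probes were at background. Cirbp, the related cold-inducible RNA-binding protein gene outside the chosen families, had 612 on the DHT array and 1496 on the vehicle array, 2.28-fold lower (-1.19). Both cold-inducible genes were lower on the DHT array.

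Splicing genes outside these families were read from lists of their own. Of 46 detected genes of the spliceosome and its helicases, 1 was higher and 1 lower at 1.5-fold, together 4.35%, against 29.2% of all genes. The median of this list was -0.05. Usp39, a tri-snRNP protein, was 1.52-fold higher (0.60) and the helicase Ddx39b 1.57-fold lower (-0.65). Of 28 other splicing regulators, 0 were higher and 7 lower, and the median was -0.07. Those lower were Rbms3 (-1.24), Rbmx (-1.08), Ptbp1, a repressor of tissue-specific exons (-0.85), Fubp1 (-0.77), Rbms1 (-0.67), Sfpq (-0.59) and Taf15, at least 1.14-fold lower and not well above background under DHT. Of all genes, 13.4% were higher and 15.8% lower at this fold. Without background correction Usp39 (1.46-fold), Fubp1 (1.38), Rbms1 (1.48), Sfpq (1.46) and Taf15 (1.22) were below 1.5-fold.

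The kinases that phosphorylate SR proteins were 7 detected genes, 1 higher and 1 lower at 1.5-fold, or 28.6%, next to 29.2% of all genes. Srpk3, the SR protein kinase of striated muscle, had 3633 on the DHT array and 8337 on the vehicle array, 2.02-fold lower (-1.02) and 1.99-fold lower without background correction. Srpk2, a widely expressed relative, had 660 on the DHT array and 535 on the vehicle array, 1.65-fold higher (0.72), or 1.48-fold uncorrected. Srpk1 stood at 0.41, so the 3 Srpk genes did not share a direction.

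**Figure D4:**
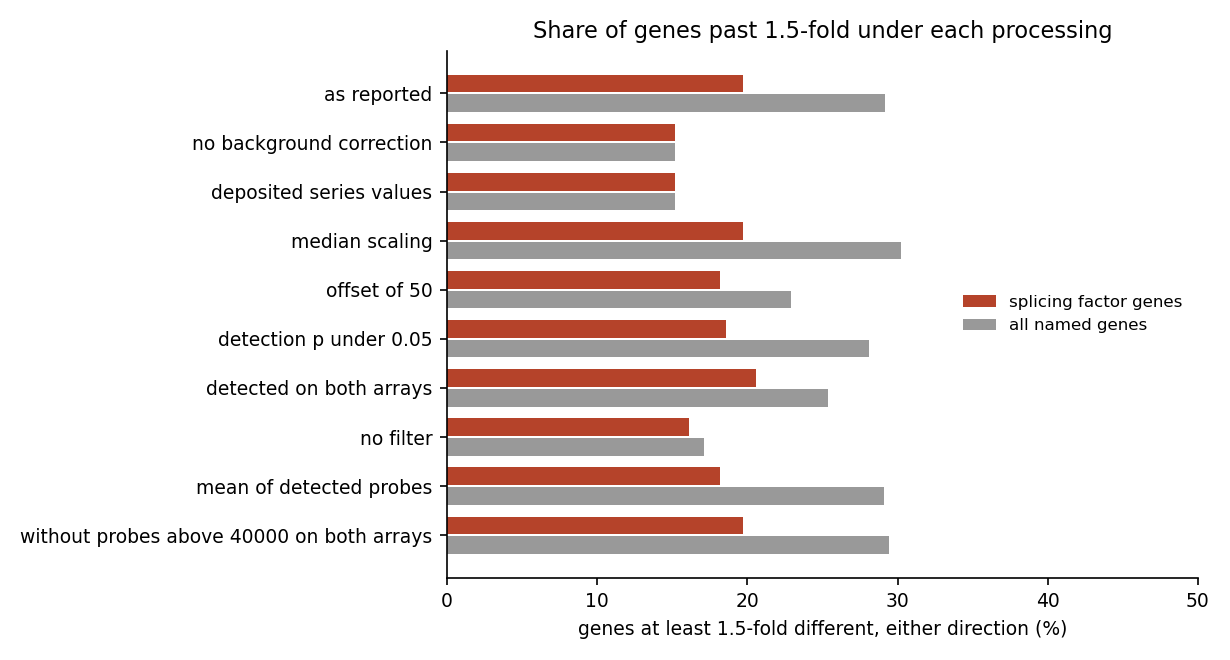
Share of genes at least 1.5-fold different in either direction, in percent, among the splicing factor genes (red) and all named genes (grey), as reported and under 9 other ways of processing the same 2 arrays. The members' share runs from 15.2% to 20.6%, and the shares of members and all genes are equal at 15.2% without background correction.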

How the data were processed

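The deposited signal intensity is each probe's brightness on a linear scale, neither background-subtracted nor normalized between arrays, as its values show. The authors also deposited a detection p-value for each probe on each array, per the file headers. A table of log2 values, deposited for the series, differed by at most 0.000654 from quantile-normalized log2 signals. GenomeStudio 2011.1 is named in the submitters' processing notes, with a role not given in the sources used here. No genome build is named there.

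Background was corrected from the detection p-values and 16 was added as an offset. Quantile normalization followed on the linear scale, and log2 was taken after it (limma 3.58.1, R 4.3.3), in a script tested on simulated data. Without background correction, the quantile step was run on log2 signals instead. Detection meant a p-value under 0.01, and of several detected probes the one brightest on average stood for the gene. All 25697 probes were processed together. Of these, 23978 carried 1 symbol each, from the platform annotation, 1719 had none and 0 had several. With 1 array per group there is no test, p-value or error, and the number of arrays limits the precision. Genes were counted at 1.5-fold, beside the share of all genes past it. Members, gene lists and rules were chosen with earlier results of these data known. Values are given for every member past 1.5-fold, every detected Mbnl, Celf and Rbfox gene and Rbm3, and the 3 members of each class with the highest mean. They are also given for members whose detected probes lay on both sides of 0 with a gap over 2 probe-to-probe SDs. Rbm24 was not detected, and Rbm20 had no probe. Other splicing genes and 11 marker lists came from fixed lists. Alternatives changed the background correction, scaling, offset, filters, probe choice and fold. Python 3.11.15 with pandas 2.3.3, numpy 2.4.6 and matplotlib 3.10.9 made the tables and plots.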

Additional observations from a re-analysis of the deposited data

How the results depend on the processing

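With 1 array per group no replicate could be left out. No paired analysis was possible because each group had 1 array and the labels number no replicates. The alternatives were no background correction, the deposited series values, scaling to a common median, an offset of 50, a detection p under 0.05, detection on both arrays, no filter on dim probes, the mean of detected probes, and no probes above 40000 on both arrays. Under all 9, the 13 members past 1.5-fold kept their direction, and 8 of them, Hnrnpa1, Hnrnpa2b1, Hnrnpl, Rbfox1, Rbfox2, Rbm3, Snrpn and Srsf6, stayed past that fold. The changed detection p, detection on both arrays, no filter and the removal of bright probes could not alter these 13 values, which were identical there. The deposited values repeated the uncorrected ones to within 0.000654. Only the correction, scaling, offset and probe mean were thus distinct checks of these members. Rbm15 (0.56) and Rbm47 (0.39) did not without background correction, nor Mbnl1 (0.56) under median scaling, Srsf2 (-0.51) with the mean of its probes, and Snrpd1 (between -0.51 and -0.57) under 4 settings. At a 2-fold threshold 1 member was higher and 2 were lower, together 4.55%, against 10.9% of all genes. Median scaling moved the median of all genes to -0.13 and the higher share of genes past 1.5-fold to 31.7%, against 45.8%, and that of the members to 38.5%, against 46.2%. With the mean of detected probes, 7 members were higher and 5 lower, together 18.2%. Of all 8815 genes, 1217 were higher and 1346 lower there, together 29.1%. Medians of the members, core factors, other Rbm genes and muscle regulators shifted by under 0.26 in every alternative. That value is the SD between single probes, which does not measure the spread of a median. Under median scaling the median of all members went from -0.03 to -0.14 and that of the core factors from -0.09 to -0.21. Some medians near 0 changed sign. That of the other Rbm genes, 0.03, was -0.12 under median scaling and -0.0050 with the mean of detected probes. That of all members, -0.03, was 0.0044 among genes detected on both arrays. Dim probes limit what can be read: Rbfox2 fell short of its reported difference without background correction (-1.01, against -1.54), and values near the lowest detected signals rest on the correction.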

Other observations

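In 5 of 30 members with several detected probes, these lay on opposite sides of 0 with a gap over 2 probe-to-probe SDs. The SD came from probes detected on both arrays, and a gap can only widen with more probes. The same count was not made over all genes, so the 5 are listed as limits of single probes and not as a trait of the members. Hnrnpc, which binds uridine tracts, had signals of 9277 on the DHT array and 13657 on the vehicle array on its brighter probe (-0.35), and 1313 on the DHT array and 1198 on the vehicle array on the other (0.44). Srsf10, an SR protein that represses splicing when dephosphorylated in heat shock, had 454 on the DHT array and 634 on the vehicle array on one probe (-0.30), and 342 with DHT and 321 with vehicle on the other (0.48). Hnrnpul1 ran from -0.30 to 1.02 over 4 probes and Rbm18 from -0.02 to 1.18 over 3, and in both the highest value came from a dim probe detected on the DHT array alone. Rbm12 ran from -0.50 to 0.04 over 4 probes. The transcripts that each probe binds were not compared here.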
